A study of Homo sapiens with 18 samples.

Results

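The insulin-like growth factor (IGF) genes described here are 10 of the 60676 genes in the deposited expression table. They were taken by symbol after matching Ensembl identifiers, and all 10 were found. They are 6 secreted IGF-binding proteins (IGFBP2 to IGFBP7), the IGF-1 receptor IGF1R, the insulin receptor INSR, and the adaptors IRS1 and IRS2. RNA sequencing was performed in 3 triple-negative breast cancer (TNBC) cell lines, which lack substantial oestrogen receptor, progesterone receptor and HER2. BT20 and MDA-MB-468 expressed epithelial genes, with all 5 of 5 epithelial markers at a mean of at least 1 FPKM, against 4 of 5 in MDA-MB-231. In MDA-MB-231 controls all 5 were lower than in each other line. There the mesenchymal markers VIM (217 to 285 FPKM) and ZEB1 were higher, and CDH2 was too low to be tested. Each of these cell lines had 3 untreated control libraries and 3 libraries treated with 20 mM nicotinamide (NAM), the amide form of vitamin B3, for 48 h. RPMI medium was used for BT20 and DMEM for both MDA-MB lines, with serum, so a difference that involves BT20 cannot be told apart from one of medium. The protocol leaves unclear whether controls were harvested at the start of treatment or alongside the NAM cells, and if at the start, every NAM difference also spans the time in culture. Nothing states that the 3 replicates of a group were separate cultures, so p-values measure the spread between these libraries, which may be technical.

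IGFs and insulin bind IGF1R and INSR, receptor tyrosine kinases that phosphorylate IRS1 and IRS2. The phosphorylated adaptors recruit PI3-kinase, which activates AKT. AKT in turn keeps FOXO transcription factors out of the nucleus, and the genes of INSR and IRS2 are known FOXO targets. The secreted IGFBPs carry IGFs outside the cell and either withhold them from IGF1R or release them when proteases cut the carrier. In breast epithelium IGFBP3 and IGFBP5 are known as growth-restraining proteins, with effects that do not all require IGF binding. IGFBP7 binds IGFs weakly.

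Promoter sequences help to see how differently the members are built. RefSeq (GRCh38.p14) has entries for 9 of the 10 members, each of 250 bases before to 50 bases after a transcription start. IGFBP7 has no entry. Those of the 3 members that fell most in MDA-MB-468 are shown, with that of IGFBP4, which fell in both MDA-MB lines. Each is written 5′ to 3′ along its gene, with capitals marking TATAAA, or the variant TATATA, or the word GGGCGG, on either strand.
IGFBP5, chr2:216695500-216695799, minus strand: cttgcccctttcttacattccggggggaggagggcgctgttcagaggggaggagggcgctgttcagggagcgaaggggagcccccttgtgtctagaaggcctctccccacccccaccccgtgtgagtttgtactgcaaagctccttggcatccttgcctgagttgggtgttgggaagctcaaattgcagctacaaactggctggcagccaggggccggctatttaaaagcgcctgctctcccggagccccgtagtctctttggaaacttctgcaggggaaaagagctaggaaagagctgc
IGFBP3, chr7:45921223-45921522, minus strand: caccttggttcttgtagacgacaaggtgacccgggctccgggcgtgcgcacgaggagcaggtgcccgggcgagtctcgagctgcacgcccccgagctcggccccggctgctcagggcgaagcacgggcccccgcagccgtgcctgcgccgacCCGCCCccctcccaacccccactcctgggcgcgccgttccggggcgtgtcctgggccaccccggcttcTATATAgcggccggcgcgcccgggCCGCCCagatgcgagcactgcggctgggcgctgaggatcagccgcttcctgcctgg
IGFBP4, chr17:40443200-40443499, plus strand: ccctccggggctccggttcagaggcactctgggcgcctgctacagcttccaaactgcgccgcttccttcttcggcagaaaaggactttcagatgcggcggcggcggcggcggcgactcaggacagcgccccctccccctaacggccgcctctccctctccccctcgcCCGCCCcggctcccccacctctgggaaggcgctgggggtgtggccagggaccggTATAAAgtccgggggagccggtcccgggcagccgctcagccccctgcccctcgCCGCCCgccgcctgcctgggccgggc
INSR, chr19:7294365-7294664, minus strand: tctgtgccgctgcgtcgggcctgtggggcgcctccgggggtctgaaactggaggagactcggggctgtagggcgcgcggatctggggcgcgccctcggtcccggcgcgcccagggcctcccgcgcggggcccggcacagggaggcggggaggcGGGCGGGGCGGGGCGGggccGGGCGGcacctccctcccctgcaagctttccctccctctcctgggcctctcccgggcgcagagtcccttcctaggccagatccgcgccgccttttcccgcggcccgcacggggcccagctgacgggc

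The IGFBP3 window held 1 TATATA and 2 GGGCGG, the letters of a GC box bound by Sp1-type factors. That of IGFBP4 held 1 TATAAA, the TATA box letters, and 2 GGGCGG. INSR had 4 GGGCGG and neither TATA word, and neighbouring matches there may share a base. The IGFBP5 window held none of these words and 9 CpG, against 36 in IGFBP3 and INSR and 30 in IGFBP4. Among all 35116 promoters of the same length, 11.5% hold TATAAA, 3.99% TATATA and 45.0% GGGCGG, and the median is 14 CpG. The FOXO word GTAAACA, present in 3.42% of promoters, occurred once among the members, in IGFBP6. These are matches of letters and not shown binding sites.

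Some binding protein genes are close neighbours. IGFBP2 (chromosome 2, 216632828 to 216664436, plus strand) and IGFBP5 (216672105 to 216695549, minus strand) lie end to end, 7668 bases apart, with 0 protein-coding genes between them. IGFBP3 (chromosome 7, 45912245 to 45921874, minus strand) lies 18584 bases from IGFBP1. Coordinates are those of GENCODE v44 on GRCh38. The other members are on chromosomes 4 (IGFBP7), 12 (IGFBP6), 13 (IRS2), 15 (IGF1R), 17 (IGFBP4), 19 (INSR) and 2 (IRS1, 226731312 to 226799820, minus strand).

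Levels are the authors' FPKM (fragments scaled to gene length and to the reads of each library), so genes can be compared per length. FPKM moved in steps of 1 read, which gave library totals of 10864143 to 21755168 reads (median 16640628). Fold changes are log2 differences of quantile-normalized log2(FPKM + 1), fitted by limma across all genes that reached 1 FPKM in 3 or more libraries. They understate changes of low genes. A gene was called when its Benjamini-Hochberg adjusted p was under 0.05 and its absolute log2 difference above 0.58. In MDA-MB-231, replicate 1 of both groups stood apart, with summed FPKM of 344166 and 363901 against 284756 to 293905 in the other 4 libraries. Among 4 equal bins of genes by exon length, the bin of shortest genes was higher in replicate 1 than in replicates 2 and 3 by a median log2(FPKM + 1) of 0.20 in control and 0.22 in NAM, and that of the longest differed by -0.31 and -0.60. In MDA-MB-468 replicate 1 also stood apart, by the correlation across genes of deviations from group means. Control 1 had r = 0.71 with NAM 1, and -0.72 and -0.33 with NAM 2 and 3. Deviations within a group cancel out for each gene, so a positive r with NAM 1 forces a negative one elsewhere. The negative values are thus not separate evidence. Markers of fibroblasts, endothelium and leukocytes summed to 3.33 to 6.39 FPKM over 15 genes in the MDA-MB lines, and 2 to 5 of the 15 were at 0 in every library of a group. In BT20 they summed to 16.7 to 27.6 FPKM in control and 6.33 to 11 with NAM, of which the endothelial cadherin CDH5 made up a mean of 19.8 and 6.69 FPKM. The part of these markers in the BT20 results was not tested.

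The 3 untreated lines differed in their main binding protein, while MDA-MB-468 shared IGFBP5 with BT20 and IGFBP4 with MDA-MB-231. BT20 controls made mainly IGFBP5, MDA-MB-468 controls mainly IGFBP3 with IGFBP4 and IGFBP5, and MDA-MB-231 controls mainly IGFBP4 and IGFBP7. IGFBP5 made up 76.7% to 89.7% of the summed FPKM of IGFBP1 to IGFBP7 in the BT20 controls. For IGFBP3 this share was 56.0% to 62.9% among MDA-MB-468 controls, and for IGFBP4 69.8% to 71.8% among MDA-MB-231 controls. The sum itself was 284 to 363 FPKM in BT20, 324 to 406 in MDA-MB-468 and 612 to 925 for MDA-MB-231, the highest value being that of replicate 1.

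**Figure D1:**
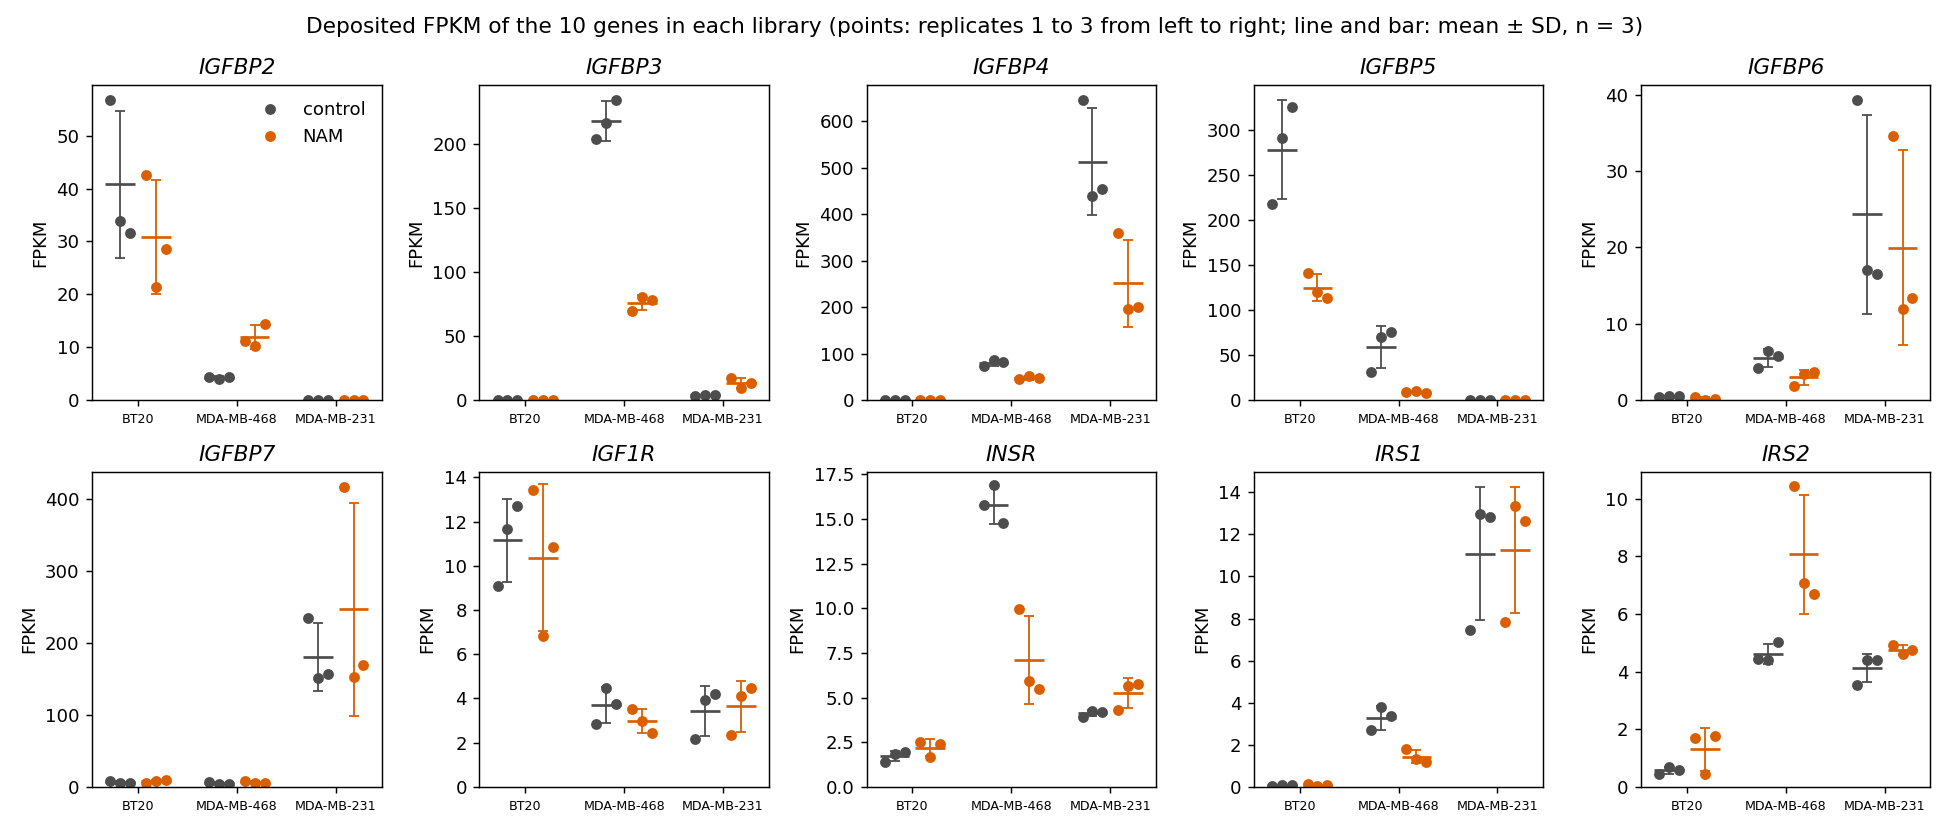
Deposited FPKM (vertical axis, linear, a separate scale for each gene) of the 10 genes in the 18 libraries, by line and treatment, with points for replicates 1 to 3 from left to right and a line and bar for the mean ± SD (n = 3). IGFBP3 was highest in the MDA-MB-468 controls (204 to 235), IGFBP4 in the MDA-MB-231 controls (439 to 646) and IGFBP5 in the BT20 controls (218 to 325).

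Compared with BT20 controls, 9 of the 10 members differed in MDA-MB-468 controls and 10 of 10 in MDA-MB-231 controls. Of all genes tested, 43.9% and 48.2% did. Between the MDA-MB lines 8 of 10 differed, against 44.2% of all genes. Over all genes, calls against BT20 were 4380 higher and 4193 lower in MDA-MB-231 and became 3474 and 5164 without further normalization, and those of MDA-MB-231 against MDA-MB-468 went from 4084 and 3771 to 3267 and 4538. All the calls of members held with any single library left out and under every other processing tried. The comparisons share their control libraries, so they are not independent of each other. The members were chosen with earlier results of these data known, so these counts do not show an excess over all genes.

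IGFBP3, the main IGF carrier in serum, had 204, 217 and 235 FPKM in the MDA-MB-468 controls (218 ± 15.5, mean ± SD, n = 3). It had 3.58, 3.76 and 3.62 FPKM in the MDA-MB-231 controls, and 1, 1 and 2 reads in the BT20 controls. The order MDA-MB-468, MDA-MB-231, BT20 held at every step (log2 differences -5.32, SE 0.16, adjusted p = 1.37e-13 for MDA-MB-231 against MDA-MB-468, and 2.37, SE 0.16, adjusted p = 3.33e-09 for MDA-MB-231 against BT20). With so few reads in BT20, the last difference is set largely by the pseudocount of 1 and gives no fold.

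IGFBP4, an inhibitory carrier cut by the protease PAPPA, ran the other way between the MDA-MB lines. Its FPKM were 646, 439 and 455 in the MDA-MB-231 controls and 72.6, 86.0 and 81.1 in the MDA-MB-468 controls (mean ratio 6.42, log2 difference 2.56, SE 0.11, adjusted p = 1.11e-11). BT20 controls had 7, 2 and 1 reads. IGFBP5, a matrix-binding carrier, was highest in BT20 with 218, 291 and 325 FPKM. It had 31.7, 69.5 and 75.4 FPKM in the MDA-MB-468 controls, a log2 difference from BT20 of -2.48 (SE 0.26, adjusted p = 6.27e-07), and only 3, 2 and 0 reads in MDA-MB-231. Replicate 1 of the MDA-MB-468 controls was thus less than the other 2 libraries, and all 3 lay below the BT20 range.

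IGFBP2, a carrier often raised in tumours, followed the same order as its neighbour IGFBP5. It had 56.8, 33.9 and 31.6 FPKM in BT20 controls, 4.42, 3.95 and 4.41 in MDA-MB-468 controls and 0, 1 and 0 reads in MDA-MB-231 controls. The 2 lines with detectable IGFBP2 differed by -2.94 on the log2 scale (SE 0.23, adjusted p = 1.61e-08). IGFBP6, which prefers IGF-2, had the reverse order. Its FPKM were 39.3, 17.1 and 16.6 in MDA-MB-231, 4.24, 6.5 and 5.85 for MDA-MB-468, and 0.424, 0.487 and 0.503 in BT20, and each pair of lines differed (adjusted p = 0.000299 for the MDA-MB lines).

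IGFBP7 stood out in MDA-MB-231, with 235, 151 and 157 FPKM. BT20 had 8.77, 5.43 and 5.26 FPKM and MDA-MB-468 7.42, 4.46 and 4.35, which overlap and did not differ (log2 difference -0.15, 95% interval -0.66 to 0.36, adjusted p = 0.646). IGFBP7 overlaps POLR2B and IGFBP7-AS1 on the other strand. IGFBP7-AS1 was also high only in MDA-MB-231 among these groups, at 25.2 ± 4.05 FPKM in controls (n = 3) against 0 in BT20, and the strand setting of the authors' counting is not stated. Reads of the overlapping parts therefore cannot be assigned to one strand with certainty. Its start and end are 57030773 and 57110385, minus strand.

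The receptors had opposite orders in BT20 and MDA-MB-468. IGF1R had 9.07, 11.7 and 12.7 FPKM in BT20 controls, above 2.84, 4.45 and 3.77 for MDA-MB-468 and 2.16, 3.93 and 4.22 for MDA-MB-231. The MDA-MB lines did not differ from each other (log2 difference 0.09, 95% interval -0.41 to 0.59, adjusted p = 0.781), while both lay below BT20 (-1.36, adjusted p = 0.000137, and -1.27, adjusted p = 0.00022). INSR had 15.8, 16.9 and 14.7 FPKM in MDA-MB-468 controls, 3.93, 4.24 and 4.20 in MDA-MB-231 and 1.41, 1.84 and 1.97 in BT20. Each step of that order exceeded the replicate spread (log2 difference -1.55, SE 0.17, adjusted p = 7.49e-07 for MDA-MB-231 against MDA-MB-468, and 1.17, SE 0.17, adjusted p = 1.65e-05 for MDA-MB-231 against BT20). Controls thus held 6.35 to 6.44 times more IGF1R than INSR mRNA per length in BT20, but 3.79 to 5.55 times more INSR than IGF1R in MDA-MB-468. For MDA-MB-231 the ratio of INSR to IGF1R was 0.995 to 1.82, with the highest value in replicate 1.

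Both IRS adaptors were low in BT20. IRS1, the adaptor classically tied to IGF1R signalling, had 7 to 15 reads in BT20 controls, 2.68, 3.80 and 3.38 FPKM for MDA-MB-468 and 7.44, 13 and 12.8 for MDA-MB-231. The MDA-MB lines differed by 1.56 on the log2 scale (SE 0.18, adjusted p = 1.84e-06). IRS2, linked to motility and metabolism in breast cancer cells, had 0.455, 0.703 and 0.589 FPKM in BT20, 4.44, 4.40 and 5.02 for MDA-MB-468 and 3.54, 4.39 and 4.41 for MDA-MB-231. The MDA-MB lines did not differ in IRS2 (0.02, 95% interval -0.42 to 0.45, adjusted p = 0.964), and each exceeded BT20 (1.96 and 1.97, adjusted p = 7.03e-07 and 4.92e-07).

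In MDA-MB-468, 6 of the 10 members tested were called with NAM, against 8.87% of all genes tested. With 1 library left out 3 to 7 were, and 3 when replicate 2 or 3 of either group was absent, where calls over all genes went from 1308 to between 258 and 584. IGFBP2 rose, with 3.5% of all genes called upward, and IGFBP5, IGFBP3, INSR, IRS1 and IGFBP4 fell, with 5.36% called downward. The median log2 difference over the 10 members was -0.75, against 0.02 over all genes. In BT20, 1 of 5 members tested was called, against 15.2% of all genes, and in MDA-MB-231 2 of 8, against 1.92%. The members not tested there stayed under the filter. Members and the gene lists below were chosen with earlier results of these data known, so their counts and medians do not show an excess over all genes.

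**Figure D2:**
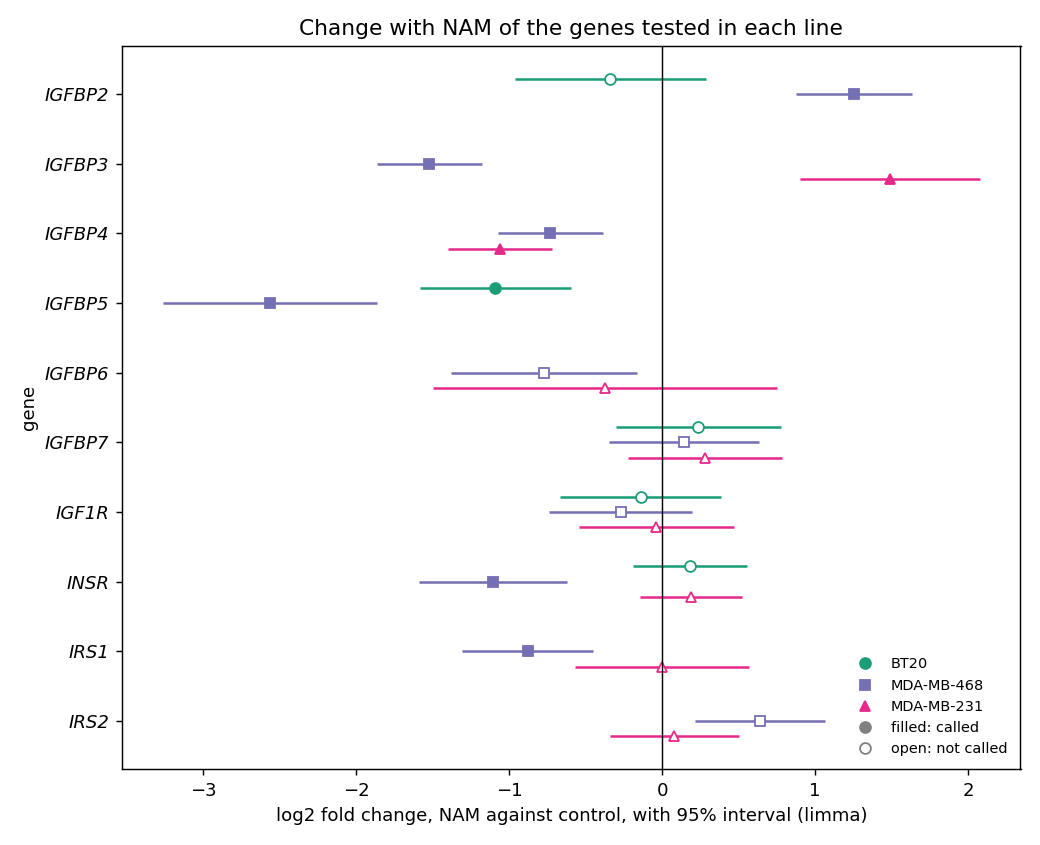
Log2 difference between NAM and control libraries (horizontal axis, 95% interval by limma) for each gene tested by line (BT20 circles, MDA-MB-468 squares, MDA-MB-231 triangles), filled where called. IGFBP3 lies at -1.52 in MDA-MB-468 but at 1.49 in MDA-MB-231, and IGFBP5 at -2.56 in MDA-MB-468 and -1.09 in BT20.

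IGFBP3 moved in opposite directions in the MDA-MB lines. In the first, MDA-MB-468, its FPKM fell from 204, 217 and 235 to 69.5, 80.7 and 78.4 with NAM. The groups were far apart, and the NAM mean was 0.349 of the control mean (log2 difference -1.52, SE 0.15, adjusted p = 0.00103). In MDA-MB-231 it rose from 3.58, 3.76 and 3.62 to 17.4, 9.64 and 13.1 FPKM, with every NAM library above every control (ratio of means 3.66, log2 difference 1.49, SE 0.25, adjusted p = 0.0436). The MDA-MB-231 change exceeded that of MDA-MB-468 by 2.92 (SE 0.23, adjusted p = 1.22e-06 for the interaction). BT20 had 1, 1 and 2 reads in control and 0 in all 3 NAM libraries, which is under the floor of 3 reads and gives no fold.

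IGFBP5 fell in both lines that expressed it. In MDA-MB-468 it went from 31.7, 69.5 and 75.4 FPKM to 9.12, 9.60 and 7.55, so that even the low control replicate 1 exceeded all NAM libraries (ratio of means 0.149, log2 difference -2.56, SE 0.31, adjusted p = 0.00232). In BT20 it went from 218, 291 and 325 FPKM to 141, 120 and 113 (ratio 0.448, log2 difference -1.09, SE 0.22, adjusted p = 0.0141). The BT20 groups did not overlap, as was the case for 39.3% of all genes tested there. The fall was larger in MDA-MB-468 than in BT20 by 1.39 (-1.39, SE 0.36, adjusted p = 0.0343). Leaving out control replicate 2, control replicate 3 or NAM replicate 3 took away the BT20 call, with an adjusted p of at most 0.0682.

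IGFBP4 fell in both MDA-MB lines. In MDA-MB-231 it fell from 646, 439 and 455 FPKM to 359, 195 and 201, with replicate 1 the highest of each group and no overlap (ratio 0.490, log2 difference -1.06, SE 0.14, adjusted p = 0.0258). The MDA-MB-468 libraries went from 72.6, 86.0 and 81.1 FPKM to 44.8, 52.0 and 47.0 (ratio 0.600, log2 difference -0.73, SE 0.15, adjusted p = 0.0209). The 2 falls did not differ beyond their error (difference -0.34, 95% interval -0.69 to 0.00, adjusted p = 0.328). BT20 had 0 to 7 reads in its 6 libraries.

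In MDA-MB-231 both calls were lost in most fits with a library left out, as were all or many of the calls over all genes. Leaving out any one control library, or one of NAM replicates 2 and 3, took away the calls of IGFBP3 (adjusted p at most 0.269) and IGFBP4 (at most 0.245). Of all genes 0 were called in 4 of these 5 fits and 126 without control replicate 1, against 266 with all libraries, while the log2 differences stayed at 1.24 to 1.75 for IGFBP3 and -1.11 to -1.04 for IGFBP4. Both were called without the 2 replicate 1 libraries that stood apart (log2 differences 1.26, adjusted p = 0.00837, and -1.10, adjusted p = 0.00392), where 13.8% of all genes were called, and with the replicate as a block, where 15.9% were. Over all genes the calls in this line were 115 up and 151 down, but 171 and 118 without further normalization. In MDA-MB-468, IGFBP4 lost its call when any 1 library other than control replicate 1 was left out (adjusted p at most 0.141), while IGFBP2, IGFBP3 and IGFBP5 were called whichever library was left out.

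IGFBP2 was the only member called upward in MDA-MB-468. It rose from 4.42, 3.95 and 4.41 FPKM to 11.2, 10.2 and 14.4, a ratio of means of 2.8 (log2 difference 1.25, SE 0.17, adjusted p = 0.0034). In BT20 it had 56.8, 33.9 and 31.6 FPKM in control and 42.6, 21.3 and 28.5 with NAM, where the groups overlapped and replicate 1 was highest in each (log2 difference -0.34, 95% interval -0.96 to 0.29, adjusted p = 0.42). The effects in the 2 lines differed by 1.61 (SE 0.32, adjusted p = 0.00589). Its neighbour IGFBP5 thus fell in MDA-MB-468 while IGFBP2 rose.

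IGFBP6 in MDA-MB-468 had 4.24, 6.5 and 5.85 FPKM in control and 1.85, 3.39 and 3.69 with NAM. The groups did not overlap, as for 29.6% of all genes in this line, and the log2 difference of -0.77 (SE 0.26) missed the threshold (adjusted p = 0.117). The main fit took libraries as unpaired, and replicate numbers served as pairs only in the fit with a replicate block. In both MDA-MB lines mainly the replicate 1 libraries of the 2 groups were alike. With the replicate as a block IGFBP6 fell (adjusted p = 0.00413), with 15.3% of all genes called in that fit. In MDA-MB-231 it had 39.3, 17.1 and 16.6 FPKM against 34.7, 11.9 and 13.3 (log2 difference -0.37, 95% interval -1.50 to 0.75, adjusted p = 0.723). Replicate 1 was by far the highest library of each group, and without both replicate 1 libraries the difference was -0.44 (adjusted p = 0.0278), still under the fold threshold. BT20 had 2 to 12 reads.

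IGFBP7 was not called in any line. It had 235, 151 and 157 FPKM in the MDA-MB-231 controls and 418, 152 and 170 with NAM, so the higher NAM mean rested on replicate 1 (log2 difference 0.28, 95% interval -0.23 to 0.78, adjusted p = 0.526). Without both replicate 1 libraries the difference was 0.11 (adjusted p = 0.369). The antisense IGFBP7-AS1 was also highest in NAM replicate 1 of this line, at 58.4 FPKM against 24.1 and 26.8. NAM libraries had 5.64, 8.67 and 9.52 FPKM of IGFBP7 in BT20 and 7.90, 4.93 and 5.81 in MDA-MB-468 (log2 differences 0.24 and 0.14, adjusted p = 0.516 and 0.738).

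The summed level of the family separated the groups in BT20 and MDA-MB-468, and the shares of its main members did so in both MDA-MB lines. The summed FPKM of IGFBP1 to IGFBP7 went from 284 to 363 in BT20 controls down to 150 to 190 with NAM, and from 324 to 406 down to 144 to 161 in MDA-MB-468. Neither pair of ranges overlapped. For MDA-MB-231 the ranges 612 to 925 and 369 to 830 overlapped through replicate 1, and the sum was lower with NAM within each of the 3 replicate pairs (925 and 830, 612 and 369, 634 and 398). The BT20 shares overlapped through control replicate 1. IGFBP5 was at 76.7%, 87.9% and 89.7% in control replicates 1 to 3 and at 74.4% to 79.9% with NAM. IGFBP2 was at 20.0%, 10.3% and 8.72% in control and at 14.2% to 22.4% with NAM. In MDA-MB-468 the share of IGFBP3 went from 56.0% to 62.9% in control to 48.2% to 50.2% with NAM, that of IGFBP5 from 9.77% to 18.6% to 4.82% to 6.32%, and that of IGFBP2 from 1.02% to 1.36% to 6.37% to 9.18%. IGFBP4 gained share there, from 20.0% to 22.4% to 30.0% to 32.3%, although its own level fell. In MDA-MB-231 the share of IGFBP4 was lower with NAM and that of IGFBP7 higher, with 69.8% to 71.8% against 43.3% to 52.8% for the former and 24.6% to 25.4% against 41.3% to 50.3% for the latter. These shares carry no test, and IGFBP7 itself was not called.

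**Figure D3:**
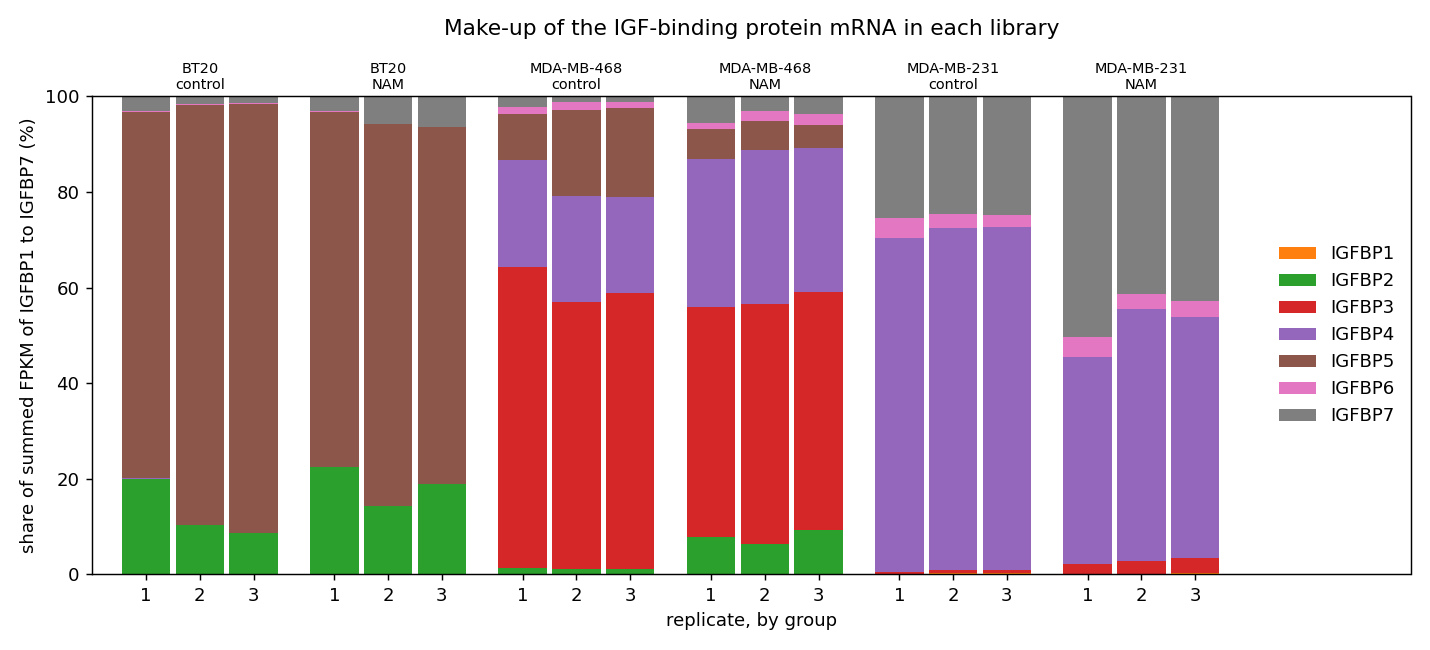
Share of each IGF-binding protein in the summed FPKM of IGFBP1 to IGFBP7 (vertical axis, percent) in each of the 18 libraries, grouped by line and treatment, with replicate numbers below the bars. IGFBP5 fills most of each BT20 bar, IGFBP3 with IGFBP4 most of each MDA-MB-468 bar, and IGFBP4 with IGFBP7 most of each MDA-MB-231 bar.

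INSR fell with NAM in MDA-MB-468, where its level had been highest. It went from 15.8, 16.9 and 14.7 FPKM to 9.94, 5.95 and 5.46, with NAM replicate 1 the least changed (ratio 0.451, log2 difference -1.11, SE 0.21, adjusted p = 0.0166). In MDA-MB-231 it had 3.93, 4.24 and 4.20 FPKM in control and 4.32, 5.66 and 5.79 with NAM. These groups did not overlap, as for 27.7% of all genes in this line, and the gene was not called (log2 difference 0.19, 95% interval -0.14 to 0.52, adjusted p = 0.514). BT20 had 1.41, 1.84 and 1.97 against 2.51, 1.66 and 2.41 FPKM, which overlapped (0.18, adjusted p = 0.468). The effect in MDA-MB-468 was lower than that in BT20 by 1.30 (-1.30, SE 0.24, adjusted p = 0.00324), and that in MDA-MB-231 exceeded it by 1.29 (SE 0.24, adjusted p = 0.00326). Leaving out replicate 2 or 3 of either group took away the MDA-MB-468 call (adjusted p at most 0.094), as did testing all genes without a filter (0.0579).

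IGF1R was not called in any line. With NAM its FPKM were 13.4, 6.84 and 10.8 in BT20. They were 3.53, 2.97 and 2.43 in the MDA-MB-468 cells, against 2.33, 4.13 and 4.46 for MDA-MB-231, each group overlapping its control. The log2 differences were -0.14 (95% interval -0.67 to 0.39, adjusted p = 0.706), -0.27 (-0.74 to 0.19, 0.469) and -0.04 (-0.55 to 0.47, 0.946). Intervals of this width leave room for changes past the fold threshold in BT20 and MDA-MB-468. The gene for the antisense RNA SYNM-AS1 overlaps IGF1R and had group means of 0.686 to 4.53 FPKM, so the same limit on strand applies.

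The ratio of INSR to IGF1R lay nearer to 1 with NAM in the 2 lines with the most unequal controls. For MDA-MB-468 it went from 5.55, 3.79 and 3.92 to 2.81, 2.01 and 2.25. In BT20 it went from 0.155, 0.158 and 0.155 to 0.187, 0.243 and 0.223, although neither receptor was called there. The MDA-MB-231 groups overlapped, at 1.82, 1.08 and 0.995 against 1.85, 1.37 and 1.30, while within the 3 replicate pairs the ratio was higher with NAM in 3 of 3. The log2 ratio differed by -0.90 (SE 0.23) in MDA-MB-468, 0.47 (SE 0.11) in BT20 and 0.25 (SE 0.32) in MDA-MB-231. An exact two-sided permutation test gave p = 0.1, 0.1 and 0.5 in that order, where 0.1 is the smallest that 3 libraries against 3 can give (adjusted p = 0.15, 0.15 and 0.5 over 6 comparisons of ratios).

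**Figure D4:**
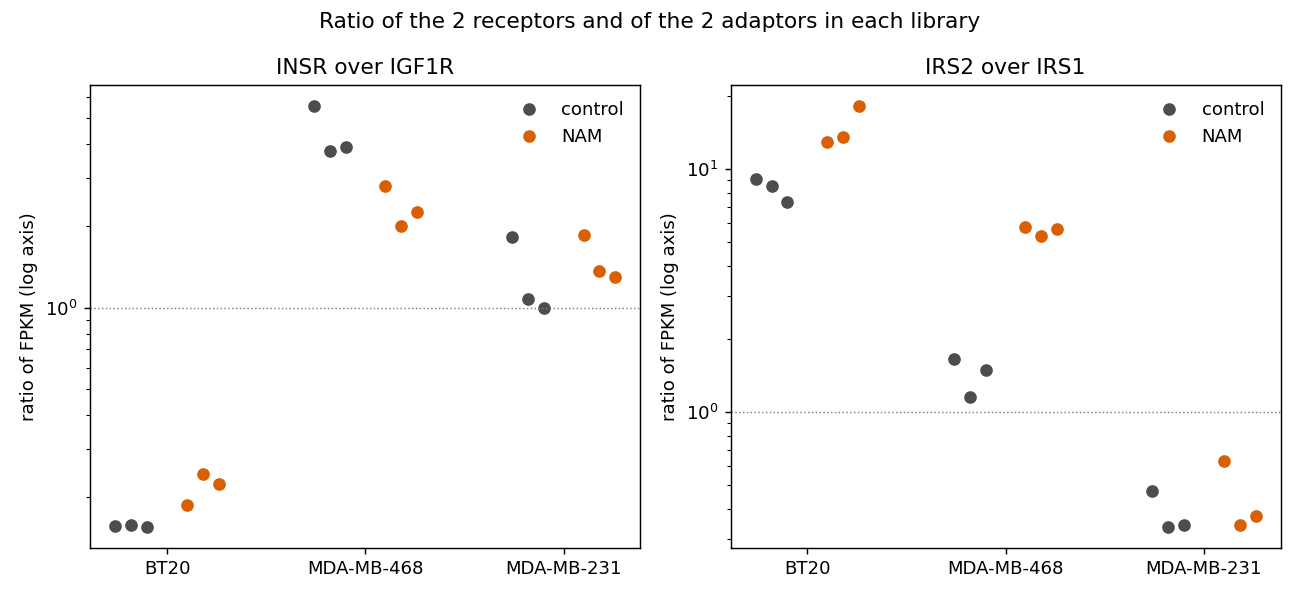
Ratio of FPKM in each library (log axis) of INSR over IGF1R, left, and of IRS2 over IRS1, right, by line and treatment, with replicates 1 to 3 from left to right and a dotted line at a ratio of 1. IRS2 over IRS1 in MDA-MB-468 lies at 1.16 to 1.66 in control and 5.32 to 5.75 with NAM, and the MDA-MB-231 groups overlap in both plots.

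IRS1 and IRS2 had unlike values in MDA-MB-468. IRS1 fell from 2.68, 3.80 and 3.38 FPKM to 1.81, 1.33 and 1.18, without overlap (ratio 0.439, log2 difference -0.88, SE 0.19, adjusted p = 0.0243). IRS2 had 4.44, 4.40 and 5.02 FPKM in control and 10.4, 7.07 and 6.68 with NAM, also without overlap, and missed the threshold (log2 difference 0.64, SE 0.18, adjusted p = 0.0719). With the replicate as a block IRS2 rose (adjusted p = 0.0246), so that 8 of 10 members were called in that fit. Of all genes 15.3% were called there, against 8.87% without the block. The ratio of IRS2 to IRS1 went from 1.66, 1.16 and 1.49 to 5.75, 5.32 and 5.64 in MDA-MB-468 (log2 difference 1.97, SE 0.16, exact permutation p = 0.1, adjusted p = 0.15). In BT20, with 7 to 18 reads of IRS1, it went from 9.07, 8.54 and 7.32 to 12.9, 13.6 and 18.2 (0.83, SE 0.18, exact permutation p = 0.1, adjusted p = 0.15). The MDA-MB-231 groups overlapped (0.19, SE 0.32, exact permutation p = 0.5, adjusted p = 0.5). The IRS1 call in MDA-MB-468 depended on the same 4 libraries as that of INSR (adjusted p at most 0.147 when one was left out) and on the filter (0.0587).

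In MDA-MB-231 neither adaptor was called. IRS1 had 7.44, 13 and 12.8 FPKM in control and 7.81, 13.3 and 12.6 with NAM, with replicate 1 low in both (log2 difference 0.00, 95% interval -0.57 to 0.57, adjusted p = 1). IRS2 had 3.54, 4.39 and 4.41 against 4.93, 4.59 and 4.74, where the groups did not overlap (0.08, 95% interval -0.34 to 0.50, adjusted p = 0.855). The IRS1 effects of the MDA-MB lines differed by 0.90 (SE 0.26), which missed the threshold (adjusted p = 0.0558). BT20 had 7 to 18 reads of IRS1 in its 6 libraries. Its IRS2 was 0.455, 0.703 and 0.589 FPKM in control and 1.69, 0.440 and 1.78 with NAM, too low to be tested, and NAM replicate 2 lay below all controls. An antisense long noncoding RNA gene overlaps IRS2, with a mean of 1.44 FPKM over the 18 libraries, so the limit on strand applies to IRS2 too.

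The difference in NAM effect between the 3 lines was tested as an interaction in all 18 libraries. It passed for 6 of 10 members, against 9.36% of all genes tested. These were IGFBP3 (adjusted p = 2.54e-06), IGFBP5 (0.00121), INSR (0.0022), IGFBP4 (0.00228), IGFBP2 (0.00771) and IRS1 (0.039). In IGFBP6, IGFBP7, IGF1R and IRS2 it did not pass (0.75, 0.966, 0.889 and 0.42), which does not show equal effects. A gene near 0 in one line can hardly fall there, although it can rise. This applies to IGFBP3, IGFBP4 and IRS1 in BT20 and to IGFBP2 and IGFBP5 in MDA-MB-231. The count of 6 is therefore not read against the share of all genes, and the part of low levels in the interaction was not tested. Between lines that both expressed the gene, the effect differed for IGFBP3 (the MDA-MB lines), IGFBP2 and IGFBP5 (MDA-MB-468 and BT20) and INSR (MDA-MB-468 and each other line). Between the MDA-MB lines it did not pass for IGFBP4 (adjusted p = 0.328) or IRS1 (0.0558), whose interaction came with 0 to 18 reads in BT20. IGFBP4 also lost the interaction without further normalization (as well as under a smaller pseudocount, median scaling or limma-voom, adjusted p at most 0.964) and IRS1 when 1 of 11 of the 18 libraries was left out (at most 0.117).

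Ligands of the pathway were nearly absent from these libraries. IGF1 had 0 to 4 reads per library, IGF2 0 to 1, and INS 0 in all 18, so their change was not measurable at this depth. IGF2R, which takes up IGF-2 for degradation, had group means of 8.95 to 23.4 FPKM and was not called (log2 differences 0.40, 0.25 and 0.37 in the order BT20, MDA-MB-468, MDA-MB-231, adjusted p = 0.234, 0.59 and 0.727). IGFBPL1, a related secreted protein, had 6.0, 11.2 and 11.2 FPKM in MDA-MB-468 control and 14.7, 20.7 and 19.0 with NAM (0.88, SE 0.26, adjusted p = 0.0761), and it rose with the replicate block (0.00389). In MDA-MB-231 IGFBPL1 had means of 4.59 and 6.56 FPKM (adjusted p = 0.339). IGFBP1, the FOXO-driven binding protein of liver, had 1.35, 1.93 and 1.83 FPKM in MDA-MB-231 control and 0.673, 0.296 and 0.621 with NAM. The groups did not overlap, as for 27.7% of all genes tested in this line. The log2 difference was -0.96 (SE 0.23, limma adjusted p = 0.0867). With the replicate block, where 15.9% of all genes were called, the adjusted p was 0.0313. IGFBP1 passed the filter there only through its 3 controls, the group where it was high, so neither p-value is independent support for a fall. IGFBP1 had 0 to 2 reads in the other lines. IGFALS, the third part of the serum complex, had 0 to 19 reads and the orphan receptor INSRR 0 to 5.

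Proteases that cut IGFBPs and their inhibitors form a list of 8 genes. HTRA1, a serine protease that cleaves IGFBP5 among other proteins, rose in both MDA-MB lines. It went from 6.13, 3.10 and 2.60 to 31.7, 20.4 and 22.4 FPKM in MDA-MB-231 (log2 difference 2.35, SE 0.32, adjusted p = 0.0272) and from 0.417, 0.789 and 1.02 to 2.0, 2.15 and 2.32 in MDA-MB-468 (0.80, SE 0.19, adjusted p = 0.038). The stanniocalcins, inhibitors of the IGFBP4 protease PAPPA, were called upward in 1 line each. PAPPA itself had at most 0.773 FPKM in any library. STC1 rose in MDA-MB-468 from 5.56 ± 0.678 to 11.1 ± 0.695 FPKM (0.86, adjusted p = 0.0117), and STC2 in BT20 from 9.99 ± 0.233 to 21.8 ± 7.09 (1.01, adjusted p = 0.0195, n = 3 per group). In the other lines STC1 was not called. Its FPKM were 4.85, 6.17 and 5.66 in BT20 controls and 14.7, 7.73 and 6.69 with NAM. In MDA-MB-231 they were 20.8, 33.2 and 31.5 in control and 12.8, 23.0 and 21.9 with NAM. Called were 1 of 5 tested in BT20 (15.2% of all genes), 2 of 5 in MDA-MB-468 (8.87%) and 1 of 4 for MDA-MB-231 (1.92%). HTRA1 in MDA-MB-468 lost its call with any of the 6 libraries left out, and the other calls of this list without at least 4 single libraries (adjusted p up to 0.186).

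Of the other adaptors and receptor regulators, 3 of 13 tested were called in BT20, against 15.2% of all genes there. GRB10, an adaptor that inhibits INSR and IGF1R, rose in BT20 from 0.751, 0.797 and 0.603 FPKM to 6.81, 3.36 and 7.35 (log2 difference 1.96, SE 0.24, adjusted p = 0.00309). SHC1, the adaptor that leads to RAS, fell from 104 ± 4.81 to 42.9 ± 9.95 FPKM (-1.25, adjusted p = 0.00603), and the RAS exchange factor SOS1 rose from 11.1 ± 1.56 to 18.8 ± 3.15 (0.70, adjusted p = 0.0283, n = 3 per group). In MDA-MB-231 1 of 14 was called (1.92% of all genes), CAV1, a caveolar protein that binds INSR, which fell from 148 ± 5.53 to 56.6 ± 5.99 FPKM (-1.38, adjusted p = 0.0301). In MDA-MB-468, limma called 0 of 15 (8.87% of all genes). There 1 had an unadjusted p under 0.05, limma-voom on the reads also called 0, and the fit with the replicate block called 1.

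Of the PI3K and AKT arm, 2 of 25 genes tested were called in BT20 (15.2% of all genes), 1 of 27 in MDA-MB-468 (8.87%) and 1 of 26 for MDA-MB-231 (1.92%). TRIB3, a pseudokinase that binds AKT, rose in BT20 from 18.6 ± 0.526 to 63.3 ± 9.35 FPKM (1.75, adjusted p = 0.00152), and AKT2 fell from 11.7 ± 0.538 to 6.72 ± 2.29 (-0.77, adjusted p = 0.0386). PIK3R1, the PI3-kinase subunit that docks on IRS proteins, fell in MDA-MB-468 (-1.11, adjusted p = 0.0484). It had 10.0, 4.25 and 4.34 FPKM in control and 3.28, 1.81 and 1.96 with NAM, with replicate 1 the highest of each group. SGK1, a kinase related to AKT, fell in MDA-MB-231 from 2.21 ± 0.257 to 0.504 ± 0.151 (-1.26, adjusted p = 0.0208). With the replicate block the 2 MDA-MB lines had 2 (MDA-MB-468, 15.3% of all genes) and 4 (MDA-MB-231, 15.9%) called.

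Of FOXO factors and textbook FOXO targets, 3 of 14 tested rose and 0 fell in BT20 (15.2% of all genes called), 2 of 15 rose and 0 fell in MDA-MB-231 (1.92%), and 0 rose and 2 of 13 fell in MDA-MB-468 (8.87%). TXNIP, which limits glucose uptake, rose in BT20 from 48.2 ± 14.9 to 138 ± 34 FPKM (1.54, adjusted p = 0.00944) and in MDA-MB-231 from 25.3 ± 11.5 to 155 ± 46.5 (2.60, adjusted p = 0.028). PDK4, an inhibitor of pyruvate dehydrogenase, rose in the same lines (1.09 and 1.22, adjusted p = 0.00564 and 0.0338), and the death gene BCL2L11 in BT20 (0.71, adjusted p = 0.0148). In MDA-MB-468 the repressor BCL6 and the coactivator CITED2 fell (-0.89 and -0.75, adjusted p = 0.03 and 0.029). TXNIP had 0 to 0.071 FPKM in the MDA-MB-468 libraries and FOXO1 0.0229 to 0.161. Both were under the filter and not tested there, so the absence of a called rise does not cover them. Not called in MDA-MB-468 were PDK4, with 0.826, 0.391 and 0.465 FPKM in control and 3.46, 0.978 and 1.19 with NAM (under the filter), and the sestrin SESN3, chosen after its values were seen, with 2.24, 1.06 and 1.42 against 4.45, 2.41 and 2.89 (0.66, adjusted p = 0.084). Both were higher with NAM without overlap, and groups did not overlap for 29.6% of all genes tested in this line. Of the other uncalled genes of the list tested there, FOXO6, FOXO4 and FBXO32 were lower with NAM without overlap. CCNG2, SESN1 and BCL2L11 were higher without overlap. The lines were not compared by a test for this list. Of the calls named in these lists, SHC1, TRIB3 and PDK4 in BT20 held whichever library was left out. GRB10 in BT20 passed the filter only through its 3 NAM libraries and was not tested without one of them, and the same was so for PDK4 in MDA-MB-231 and, through its 3 controls, SGK1. All others lost the call without at least 1 library (adjusted p at most 0.264), and PIK3R1 also with a pseudocount of 0.1, no filter, no further normalization or median scaling.

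The genes most like each member across the 18 libraries mostly traced the differences between lines. The measure was Pearson's r of log2(FPKM + 1) over 18 libraries, among 11856 genes with a group mean of at least 5 FPKM, and libraries of a line share their background, so no p is given. IGFBP3 was most like CX3CL1, CYP27A1 and CCL5 (r = 0.996, 0.992 and 0.99), and IGFBP4 like SAA1, SLC43A3 and ME3 (0.996, 0.995 and 0.995). IGFBP2 was most like KCNK1, EPHB6 and NETO2 (0.992, 0.986 and 0.983), and IGFBP5, after a gene without a symbol, like SEMA4A and CES1 (both 0.992). IGFBP7 was most like SPANXB1, CCR5AS and CST3 (all 0.992), and IGFBP6, again after a gene without a symbol, like SFXN4 and C15orf48 (both 0.987). Among the receptors, INSR was most like KYNU, IFI44 and the member IGFBP3 (0.961, 0.951 and 0.944), and IGF1R like MTMR4, DVL3 and ZNF512B (0.970, 0.963 and 0.963). IRS1 was most like COL4A2, PODXL and SYNJ2 (0.986, 0.984 and 0.981), and IRS2 like MTCL1, SPRY2 and NNT-AS1 (0.958, 0.956 and 0.947).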

How the data were processed

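RNA of the 3 cell lines was sequenced by the authors. Per their methods and the submitters' processing notes, cutadapt 2.8 removed adapters, TopHat2 2.1.1 was the aligner (GRCh38.p13), and HTSeq 0.11.3 gave reads per gene. The labels name a stranded total RNA kit, and the strand setting of the counting is not given in the sources used here. The deposited values are FPKM computed by the authors, with 60676 genes in 18 libraries, 3 per group, and 0 columns of other samples. Of 39935 genes above 0, 39934 were whole multiples of 1 read within 0.01 reads. The divisor was 10864143 to 21755168 reads per library and lay within 99.94% to 100.05% of the reads in protein-coding genes. The 60357 symbols and the coordinates come from GENCODE v44.

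From the FPKM, log2(FPKM + 1) of genes at 1 FPKM or more in at least 3 of 6 libraries of a line (or of 18) was quantile-normalized and tested with limma 3.58.1 in R 4.3.3, without trend or robust options. NAM was compared with control within each line, controls between lines and the line-by-NAM interaction in 1 fit of 18 libraries. Calls needed a Benjamini-Hochberg adjusted p under 0.05 over all genes and, except for the interaction, an absolute log2 difference above 0.58. Intervals are 95%. Log2 ratios of members were compared by an exact two-sided permutation test over libraries. The code was tested on simulated data.

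The members and lists were chosen with earlier results of these data known. All 10 members were named, with up to 4 called genes per direction of each other list and line with a mean of at least 1 FPKM, every ligand or binder, and the 3 genes most like each member. Control and NAM libraries share replicate numbers. Between like numbers, deviations from group means correlated across genes at 0.71, 0.61 and 0.13 in MDA-MB-468 and 0.74, 0.62 and 0.72 for MDA-MB-231. In BT20 they did so at 0.02, -0.08 and 0.10. Unlike numbers reached 0.44 in MDA-MB-468 (control 3 with NAM 2) and 0.69 in MDA-MB-231 (control 2 with NAM 3). The main fits and the ratio tests took libraries as unpaired. Numbers were used as pairs only in the replicate block and where values are given by replicate pair. In the MDA-MB lines these values set replicate 1 apart and do not pair replicates 2 and 3. Alternatives were a pseudocount of 0.1, other filters and scalings, limma-voom on recovered reads, the replicate block, single libraries left out and, for controls, the 9 control libraries alone. Leaving out both replicate 1 libraries of MDA-MB-231 was chosen after seeing the data, and was not done for MDA-MB-468. Promoter sequences are from RefSeq.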

Additional observations from a re-analysis of the deposited data

Results flagged for a closer look

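The line-by-NAM interaction passed for 6 members in the fit of all 18 libraries. IGFBP3 (adjusted p = 2.54e-06, limma) had opposite changes, -1.52 in MDA-MB-468 but 1.49 in MDA-MB-231. IGFBP5 (0.00121) fell by 2.56 in MDA-MB-468 and by 1.09 in BT20, and had 0 to 4 reads in the MDA-MB-231 libraries. INSR (0.0022) fell in MDA-MB-468, at -1.11, against 0.18 and 0.19 in BT20 and MDA-MB-231. IGFBP4 (0.00228) fell in both MDA-MB lines, which did not differ (0.328), and had 0 to 7 reads in BT20, where it had no room to fall. IGFBP2 (0.00771) rose in MDA-MB-468, at 1.25, against -0.34 in BT20. IRS1 (0.039) fell in MDA-MB-468, at -0.88, against 0.00 in MDA-MB-231, a difference that missed the threshold (0.0558), and had 7 to 18 reads in BT20. Groups of 3 libraries are too small for a search for single outlying samples.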

How the results depend on the processing

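Of 1655 gene results recomputed under alternatives, 1521 kept their side of the threshold, 128 lost a call, 6 gained one and 0 reversed. All calls of members between control lines were kept. In BT20, 1 member was called, 0 without a filter on low values (limma, where 2 had an unadjusted p under 0.05 and limma-voom called 1 with the filter), and 0 to 1 with a library left out. In MDA-MB-468, 6 were called, 3 to 7 with a library left out and 4 to 8 otherwise. In MDA-MB-231, 2 were called, 1 without a filter, 1 without further normalization, 0 with median scaling (2 had an unadjusted p under 0.05), 1 by limma-voom and 0 to 2 with a library left out. The cause was not tested. IGFBP3 lost its call there without a filter and with median scaling (adjusted p at most 0.0656), and IGFBP4 with no further normalization, median scaling or limma-voom (at most 0.176). Calls over all genes in BT20 were 2282, but 845 with no filter and 584 to 3128 with a library left out, and in MDA-MB-468 258 to 1506 against 1308. Those in MDA-MB-231 were 115 up and 151 down in the fit reported, 60 and 104 under median scaling. All-gene calls there were 266, 426 with no filter, 0 to 259 with a library left out, but 2202 with the replicate block and 1814 without both replicate 1 libraries (2 members called in each). In MDA-MB-468 the block gave 2264 calls against 1308. It changed the member calls of IGFBP6 and IRS2 in MDA-MB-468 and no other. The interaction was called for 6 members and 1664 genes, 5 to 6 members and 1063 to 1839 genes with a library left out, 4 to 6 members otherwise, and 2638 genes with no filter and 3913 with the block. IGFBP4 lost it under a pseudocount of 0.1, no further normalization, median scaling and limma-voom (adjusted p up to 0.964), and IRS1 without 11 of the 18 libraries and under 4 other alternatives (up to 0.345). Depth limits IGFBP3, IGFBP4, IGFBP6 and IRS1 in BT20 and IGFBP2 and IGFBP5 in MDA-MB-231, which had 0 to 18 reads per library there and stayed under the filter.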

Other observations

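Replicate 1 of MDA-MB-231 differed from replicates 2 and 3 along exon length, with a Spearman rho across 13835 tested genes of -0.28 in control and -0.36 with NAM (a description, since genes are not independent replicates). In control, log2(FPKM + 1) of IGFBP6 (1346 bases of exon), IGFBP7 (1930) and IGFBP4 (2205) was higher in replicate 1 by 1.18, 0.61 and 0.53, while IGF1R (13941) and IRS1 (10019) differed by -0.69 and -0.72. INSR (10831) differed by only -0.08. In the other groups rho was -0.26 and -0.02 in BT20 control and NAM, and -0.02 and 0.17 in MDA-MB-468.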
